A study of Mus musculus with 6 samples.

Results

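The core thermogenic genes of brown fat were examined as a set of 8: Ucp1, Dio2, Ppargc1a, Ppargc1b, Cidea, Letmd1, Eva1a and Irf4. They were chosen by symbol, as the uncoupling protein and genes classically induced by cold and cyclic AMP, and each matched 1 row of the 54385 genes in the count table. RNA came from interscapular brown adipose tissue of C57BL/6N mice in 6 samples; the mice were fed chow for 20 weeks and kept at 5 °C for 24 hours before collection. The 3 control samples were Adcy3-FL/FL/Adipoq-wt/wt, with floxed Adcy3 alleles and no Cre. The 3 knockout samples were Adcy3-FL/FL/Adipoq-wt/cre. Adcy3 encodes adenylyl cyclase 3, an enzyme that makes cyclic AMP, and Adipoq-Cre acts in adipocytes of white and brown fat while other cells of the tissue keep the gene. All groups were cold-exposed and no Cre-only group was analysed here, so the genes' response to cold and any effect of Cre itself cannot be read from these libraries.

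Brown fat makes heat by letting protons back into the mitochondrial matrix through uncoupling protein 1, without making ATP. Noradrenaline released in the cold acts on beta-adrenergic receptors of the brown adipocyte, cyclic AMP rises, and protein kinase A both frees fatty acids and switches on transcription of the heat-producing genes. Ucp1 is the uncoupler itself and Dio2 makes active thyroid hormone inside the cell. Ppargc1a and Ppargc1b are coactivators of mitochondrial genes, and Irf4 is a transcription factor that works with Ppargc1a at the Ucp1 gene. Cidea coats lipid droplets, and Letmd1 is a mitochondrial inner membrane protein that brown fat needs to keep Ucp1. Eva1a encodes a membrane protein linked to autophagy, and the brown fat surface marker called Eva1 in the literature is the product of a different gene, Mpzl2, which was therefore also read.

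Binding of CREB family factors to the letters TGACG is the textbook route from protein kinase A to transcription, so the promoters were searched for them. RefSeq windows on GRCm38.p6 of 250 bases before the start site were at hand for 6 of the 8 genes, all but Ppargc1b and Cidea. TGACG on either strand stood in 3 of these 6, Ucp1, Dio2 and Ppargc1a, and in 17.8% of 32851 windows of the same length. The palindrome TGACGTCA, which holds TGACG on both strands, stood in 1 of the 6, Dio2, and in 1.55% of all windows. The Ucp1 window was chr8:83290098-83290347 on the plus strand, with its match at positions -147 to -143 from the start site. The Dio2 window was chr12:90739039-90739288 on the minus strand, with its match at -95 to -88. That count is from the RefSeq start site, which for Dio2 lies upstream of the 5′ end of the GENCODE gene at 90738438. The Ppargc1a window was chr5:51567726-51567975 on the minus strand, with its match, read on the other strand, at -49 to -45. The 3 windows are shown 5′ to 3′ because these 3 held the letters searched, and capitals mark them.
Ucp1: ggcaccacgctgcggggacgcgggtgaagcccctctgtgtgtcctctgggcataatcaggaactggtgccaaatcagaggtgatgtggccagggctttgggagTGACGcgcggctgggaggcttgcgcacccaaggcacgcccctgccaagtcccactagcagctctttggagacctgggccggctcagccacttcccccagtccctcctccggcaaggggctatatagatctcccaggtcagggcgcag
Dio2: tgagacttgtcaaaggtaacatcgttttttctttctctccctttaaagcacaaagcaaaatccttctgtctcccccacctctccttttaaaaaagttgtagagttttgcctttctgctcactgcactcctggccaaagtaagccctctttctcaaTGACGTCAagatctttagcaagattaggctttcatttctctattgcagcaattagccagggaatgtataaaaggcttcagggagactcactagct
Ppargc1a: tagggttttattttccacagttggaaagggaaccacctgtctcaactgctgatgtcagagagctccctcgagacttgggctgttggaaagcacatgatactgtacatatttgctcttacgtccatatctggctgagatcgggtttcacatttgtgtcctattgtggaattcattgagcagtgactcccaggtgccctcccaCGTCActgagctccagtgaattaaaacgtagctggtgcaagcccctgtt
A match is a description of the letters and not of a bound site. No match in the 6 windows was found for the estrogen-related receptor element TCAAGGTCA (in 0.387% of all windows), the interferon regulatory factor repeat (2.98%), the NRF1 core (4.98%), the PPAR direct repeat (0.0335%) or the thyroid hormone receptor direct repeat (0.0152%), each searched on both strands.

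The libraries held between 13956786 and 17538044 estimated counts. Levels are given as CPM, the counts per 1000000 of the TMM-scaled library, and differences come from edgeR's quasi-likelihood test over 14767 genes with Benjamini-Hochberg adjustment. Adcy3 stood at 134, 169 and 158 CPM in the controls and at 21.9, 30.3 and 24.0 CPM in the knockouts, so the genotype labels held in every library (log2 fold change -2.60, SE 0.17, edgeR adjusted p = 0.00146). The labelled tissue was brown fat by its markers, with Ucp1 at rank 18 and Cidea at rank 41 of 14754 genes by CPM per kilobase in controls. The libraries also differed in muscle: 20 skeletal muscle markers summed to 1.62% to 2.08% of counts in controls and to 0.922%, 0.0714% and 0.0137% in knockouts 1 to 3. Their defining genes Acta1 and Ckm stood at 3020 and 1342 CPM in control 1 and at 5.34 and 2.37 CPM in knockout 3. All 8 tested fibroblast markers and 6 of 7 tested white adipocyte markers also had negative log2 fold changes (medians -0.71 and -0.74). Negative too were all 8 tested macrophage and dendritic cell markers and 5 of 6 tested Schwann cell markers (medians -0.28 and -0.67). Of all these markers 0 passed. T cell markers summed to 0.000312% of counts in controls and 0.000142% in knockouts. Endothelial markers summed to 0.0604% and 0.0574%, and smooth muscle and pericyte markers to 0.0421% and 0.0427%. The part of these cells in the results was not tested beyond the muscle covariate given later. In bulk tissue, fewer cells of a type and less RNA per cell cannot be told apart.

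Across the 8 genes, 7 had a positive log2 fold change in knockouts and 1, Irf4, a negative one. The median was 0.31, against 0.01 over all tested genes, of which 51.7% were positive. All 8 passed the filter on low counts, and 0 passed the test in either direction. The share of all genes that passed was 0.0609%, made up of 0.0271% higher and 0.0339% lower in knockouts, so few genes of any kind did. At an unadjusted p under 0.05 stood 4 of the 8, all higher in knockouts (Ucp1, Cidea, Letmd1 and Eva1a), against 2.87% of all tested genes in that direction, 7.6% in the other and 10.5% in both together. DESeq2 called 0 of the 8 as well (adjusted p of at least 0.133), where 0.171% of its genes passed as higher and 1.43% as lower. In the same 4 genes every knockout library lay above every control, which held for 7.63% of all tested genes. The other 4, Dio2, Ppargc1a, Ppargc1b and Irf4, had overlapping groups.

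**Figure D1:**
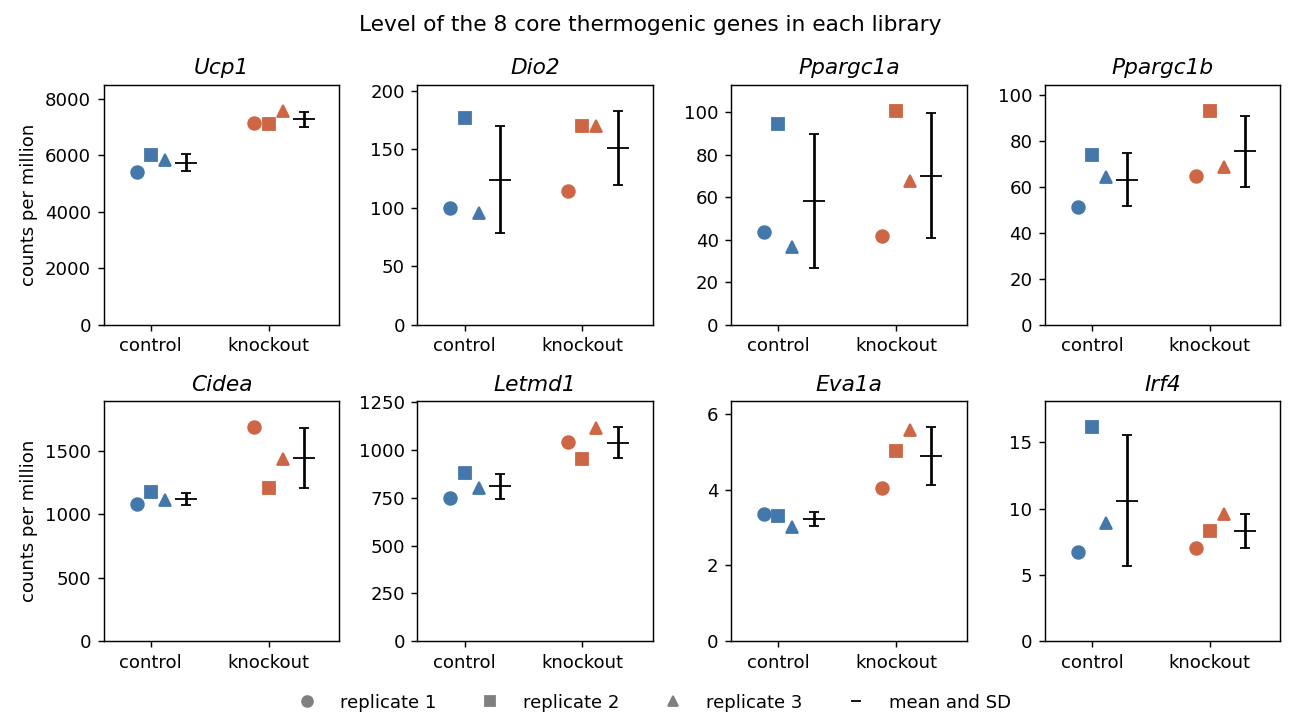
CPM (vertical axes, from 0) of each gene in the 3 control and 3 knockout libraries; symbols give the replicate number, and bars the mean and SD. Groups do not overlap for Ucp1, Cidea, Letmd1 and Eva1a, and overlap for Dio2, Ppargc1a, Ppargc1b and Irf4.

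Ucp1 (ENSMUSG00000031710, chromosome 8, 83290352 to 83298452, plus strand) stood at 5389, 5997 and 5839 CPM in controls 1 to 3 and at 7148, 7098 and 7579 CPM in knockouts 1 to 3. The lowest knockout was above the highest control, and both groups were tight, with a coefficient of variation of 5.50% in controls and 3.63% in knockouts. The fitted fold was 1.27 with a 95% interval of 1.10 to 1.46 (edgeR adjusted p = 0.235). It passed only when knockout 1 was left out, at a log2 fold change of 0.36 (adjusted p = 0.0416), where 0.296% of all genes passed as higher and 5.35% as lower. Ucp1 made up 0.595% ± 0.0371 of all counts of control and 0.702% ± 0.0250 of knockout libraries (SD over 3 each; two-sided exact permutation p = 0.1, and 3 against 3 cannot give a smaller one). None of the 5 other tested members of its carrier family passed. Ucp3, the muscle and brown fat uncoupling protein, stood at 136 ± 6.56 and 128 ± 18.2 CPM, and Ucp2, found in many tissues, at 31.1 ± 6.42 and 29.6 ± 5.26 CPM (SD, n = 3 each; controls first). The carriers Slc25a14 (log2 fold change 0.09), Slc25a27 (-0.35) and Slc25a30 (-0.13) stood at 10.6 CPM or less in every library.

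Letmd1 (ENSMUSG00000037353, chromosome 15, 100469023 to 100479164, plus strand) stood at 748, 881 and 803 CPM in controls and at 1044, 953 and 1116 CPM in knockouts. The groups did not overlap, and the fitted fold was 1.28 with a 95% interval of 1.05 to 1.56 (edgeR adjusted p = 0.363). Its relative Letm1, an ion exchanger of the mitochondrial inner membrane, also had all knockouts above all controls, at 544 ± 42.3 and 633 ± 44.7 CPM (SD, n = 3 each; edgeR adjusted p = 0.590), while Letm2 was near 4.27 and 4.37 CPM. Letmd1 and Ucp1 were the most alike of the 28 pairs of members. After centring each gene's log2 CPM on its mean over the 6 libraries, the pair differed by a root mean square of 0.052.

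Cidea (ENSMUSG00000024526, plus strand) stood at 1081, 1175 and 1110 CPM in controls and at 1687, 1210 and 1435 CPM in knockouts. The controls lay close together, while knockout 2 was just above the highest control and knockout 1 far above it. The fitted fold was 1.29 with a 95% interval of 1.03 to 1.61 (edgeR adjusted p = 0.428). Knockout 1 was also the library whose deviations followed transcript length and GC content most, with 17.1% of their variance against 1.16% to 4.33% in the other 5, and with that trend removed the Cidea log2 fold change was 0.44 (0.36 before). Without knockout 1 it was 0.24. The other lipid droplet protein of the family, Cidec, stood at 733 ± 57.9 and 843 ± 125 CPM with overlapping groups, and Cideb at 3.72 ± 0.524 and 4.12 ± 0.553 CPM (SD, n = 3 each). Neither passed.

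Eva1a (ENSMUSG00000035104, chromosome 6, 82041043 to 82093099, plus strand) was among the lowest members, at 3.35, 3.32 and 3.01 CPM in controls and 4.05, 5.01 and 5.57 CPM in knockouts, which were 45.0 to 94.0 estimated counts per library. The groups did not overlap. The fitted fold, the largest of the 8 in the TMM fit, was 1.51 with a 95% interval of 1.06 to 2.15 (edgeR adjusted p = 0.395). Its relatives Eva1b (6.01 ± 1.52 and 7.02 ± 2.36 CPM) and Eva1c (1.74 ± 0.824 and 2.09 ± 0.312 CPM, SD, n = 3 each) had overlapping groups. Mpzl2, the marker known as Eva1, was more abundant, at 51.0, 50.7 and 39.2 CPM in controls and 56.8, 67.7 and 56.5 CPM in knockouts, without overlap and without passing (log2 fold change 0.36, SE 0.15, edgeR adjusted p = 0.448).

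The coactivator Ppargc1a had the largest spread within groups of the 8 genes. Ppargc1a (ENSMUSG00000029167, chromosome 5, 51454250 to 51567726, minus strand) stood at 43.4, 94.6 and 36.6 CPM in controls and at 41.9, 101 and 67.8 CPM in knockouts. Control 2 and knockout 2 were high, control 1, control 3 and knockout 1 were low, and knockout 3 lay between. Its spread within groups on the log2 scale, 0.68, was above that of 97.8% of the 3018 genes within 2-fold of its level. The fitted fold of 1.20 had a 95% interval of 0.624 to 2.32 (edgeR adjusted p = 0.871), an interval that holds changes of either sign. The log2 fold change was -0.085 when knockout 2 was left out.

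Ppargc1b (ENSMUSG00000033871, minus strand) stood at 51.0, 73.8 and 64.3 CPM in controls and at 64.5, 93.1 and 68.6 CPM in knockouts. Replicate 2 was again the highest of each group and the groups overlapped (fold 1.20, 95% interval 0.884 to 1.62, edgeR adjusted p = 0.684). With the length and GC trend removed its log2 fold change was 0.47 (0.26 before), and it was 0.080 without knockout 2 and 0.12 without control 1, none passing. The ratio of Ppargc1a to Ppargc1b counts, which no scaling can alter, was 0.852, 1.28 and 0.569 in controls and 0.649, 1.08 and 0.988 in knockouts. Its mean log2 value differed by 0.05 between genotypes, within the spread (two-sided exact permutation p = 1). The remaining coactivator of the family, Pprc1, stood at 10.9 ± 1.05 and 10.2 ± 2.83 CPM (SD, n = 3 each) and did not pass.

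Dio2 (ENSMUSG00000007682, chromosome 12, 90724552 to 90738438, minus strand) stood at 99.8, 177 and 95.4 CPM in controls and at 114, 169 and 169 CPM in knockouts. Control 2 was as high as knockouts 2 and 3, and the other controls were near knockout 1. The fold was 1.22 with a 95% interval of 0.794 to 1.87 (edgeR adjusted p = 0.769), and the log2 fold change of 0.28 ranged from 0.10 without control 3 to 0.61 without control 2. Of the other deiodinases, Dio1 reached at most 0.268 CPM and Dio3 had 0 counts in all libraries, where 3 counts are 0.172 to 0.203 CPM. An antisense transcript, Gm26512, shares 100 exon bases with Dio2 and had 57.7 counts over the 6 libraries, while Dio2 had 1426 to 3088 in each.

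Irf4 (ENSMUSG00000021356, chromosome 13, 30749226 to 30766976, plus strand) stood at 6.76, 16.1 and 8.90 CPM in controls and at 7.03, 8.33 and 9.60 CPM in knockouts. Control 2 was the highest and the other 5 libraries lay between 6.76 and 9.60 CPM. The fold was 0.785 with a 95% interval of 0.475 to 1.30 (edgeR adjusted p = 0.755), and without control 2 the log2 fold change was 0.076. Irf4 also marks B cells and plasma cells. The summed share of 8 markers of these cells was 0.00211%, 0.00219% and 0.00180% of counts in controls 1 to 3 and 0.00156%, 0.000909% and 0.000998% in knockouts 1 to 3, so control 2 was close to control 1, and no marker was at 0 in all libraries. The part of these cells in the Irf4 level was not tested. Of the 7 other tested interferon regulatory factors, 0 passed. Irf2 (log2 fold change -0.29) had all knockouts below all controls, as 10.8% of all tested genes did, and Irf1 (0.09), Irf3 (0.22), Irf5 (-0.62), Irf7 (0.04), Irf8 (-0.46) and Irf9 (-0.09) overlapped.

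**Figure D2:**
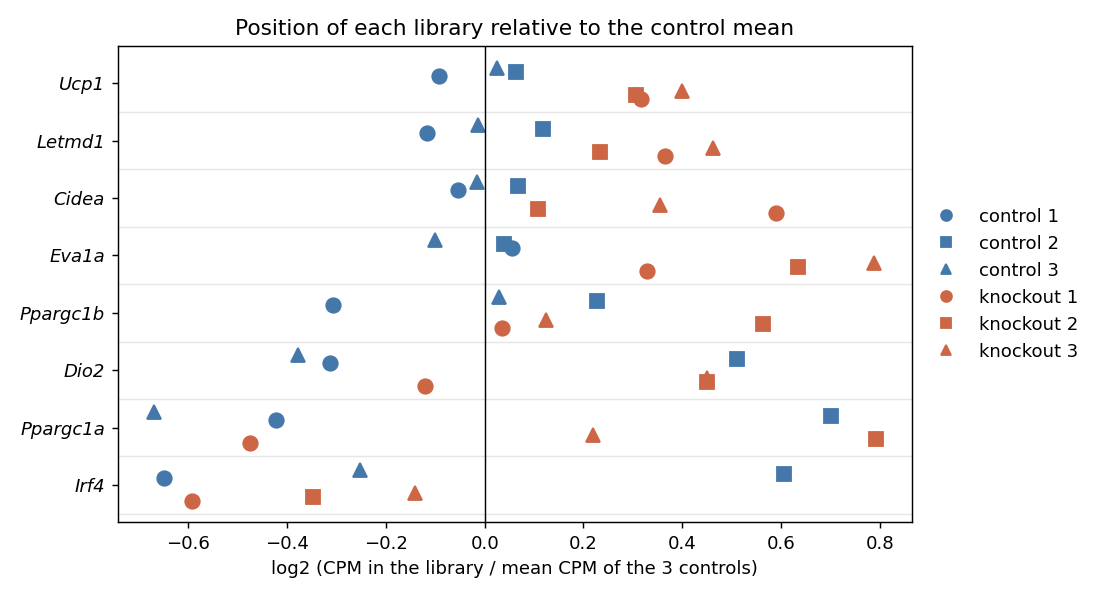
Log2 of each library's CPM over the mean of the 3 controls (horizontal axis) for each gene (rows); blue, controls; orange, knockouts; symbols give the replicate number. Ucp1, Letmd1, Cidea and Eva1a separate by genotype, while Dio2, Ppargc1a and Ppargc1b have replicate 2 high in both groups (with knockout 3 level with knockout 2 for Dio2) and Irf4 has control 2 alone high.

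Control 2 held the highest control value of 7 members, all but Eva1a, and the lowest of 0. It held the highest control value of 29.1% of all tested genes. Knockout 1 was the lowest knockout for 5 members, Dio2, Ppargc1a, Ppargc1b, Eva1a and Irf4, and the highest for 1, Cidea, against 35.6% and 45.6% of all tested genes. The within-group spread on the log2 scale was 0.07 for Ucp1, 0.12 for Letmd1, 0.18 for Cidea and 0.18 for Eva1a. It was 0.28 for Ppargc1b, 0.42 for Dio2, 0.48 for Irf4 and 0.68 for Ppargc1a. Dio2 and Irf4 lay above 94.4% and 91.8% of the genes within 2-fold of their level, and Eva1a above 12.3% only.

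Per kilobase of the longest coding transcript, the control order was Ucp1 (3510 ± 193 CPM per kilobase), Cidea (1006 ± 43.3), Letmd1 (278 ± 22.8), Dio2 (21.3 ± 7.85), Ppargc1b (17.2 ± 3.13), Ppargc1a (9.01 ± 4.91), Irf4 (2.22 ± 1.03) and Eva1a (1.82 ± 0.106; SD, n = 3 each). The steps between Ucp1, Cidea, Letmd1 and Dio2 were larger than the spread. Dio2 and Ppargc1b overlapped, as did Ppargc1b and Ppargc1a over libraries and Irf4 and Eva1a. In each of the 6 libraries Ppargc1b was above Ppargc1a on this scale. With all exons merged, Letmd1 was at 167 and Eva1a at 1.15 CPM per kilobase and the order was the same.

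**Figure D3:**
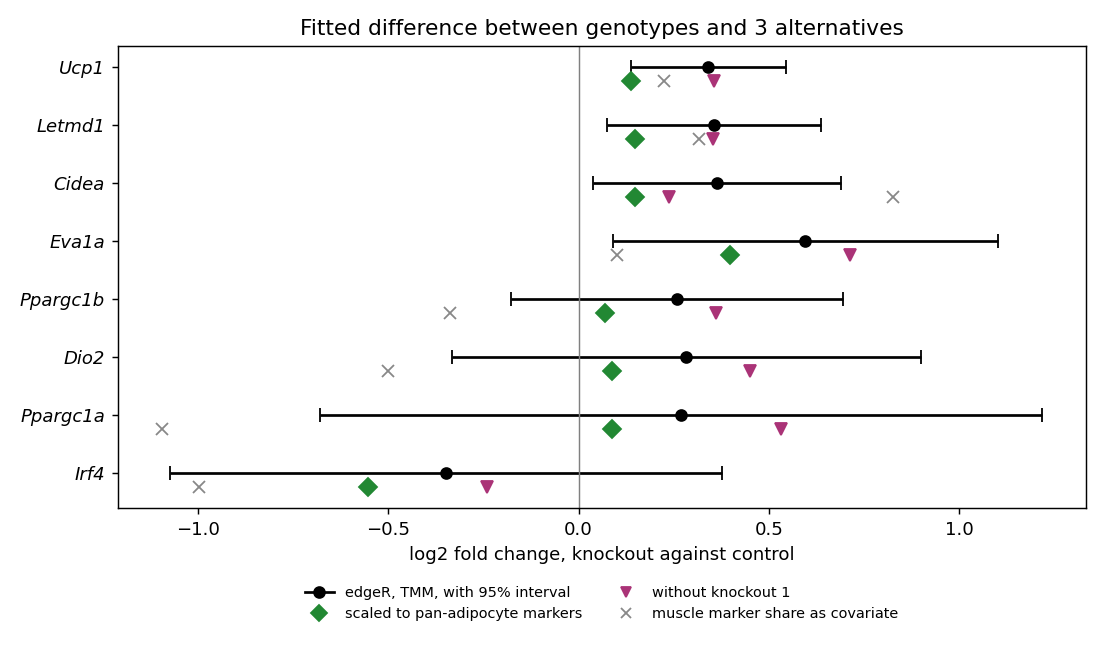
Log2 fold change of knockout against control (horizontal axis) for each gene: black, edgeR estimate with its 95% interval; diamonds, scaling to pan-adipocyte markers; triangles, without knockout 1; crosses, muscle marker share as a covariate (no intervals drawn). The intervals of Ucp1, Letmd1, Cidea and Eva1a exclude 0 before adjustment, and the diamonds lie left of each estimate.

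The separation of the 4 genes by genotype was smaller when set against a sum of adipocyte markers. How far that sum measures adipocyte content was not tested. The 9 markers of all adipocytes, among them Adipoq, Fabp4 and Plin1, summed to 15385 ± 395 CPM in control and 17776 ± 1432 CPM in knockout libraries (SD over 3 each; two-sided exact permutation p = 0.1). All 9 had positive log2 fold changes, with a median of 0.20, and 0 passed. Ucp1 was 35.2%, 39.9% and 36.9% of that sum in controls and 37.3%, 43.5% and 42.4% in knockouts, so the groups overlapped (two-sided exact permutation p = 0.2). Cidea and Letmd1 overlapped on this scale too, as did Eva1a. In an edgeR fit scaled to these markers the log2 fold changes were 0.14 for Ucp1, 0.15 for Cidea, 0.15 for Letmd1 and 0.40 for Eva1a (adjusted p from 0.498 to 0.636). The median of all tested genes was -0.19 in that fit and 0.01 in the TMM fit, so the scaling lowered genes in general.

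The muscle marker share was lower in every knockout than in every control, and its part in the members' values was looked at only as a term in the fit. With the share of muscle markers as a covariate, Dio2 was at -0.50, Ppargc1a at -1.10 and Ppargc1b at -0.34, with standard errors of 0.65, 1.06 and 0.43 and none passing. In the same fit Ucp1 (0.22, SE 0.23), Letmd1 (0.32, SE 0.30), Cidea (0.83, SE 0.30) and Eva1a (0.10, SE 0.57) stayed positive without passing. Irf4 was at -0.997 (SE 0.81), also without passing. Because the muscle share and genotype went together, this fit cannot well tell them apart.

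The patterns most like each member were read over the 6 libraries among 9426 named genes of at least 5 CPM, by the same root mean square difference. For Ucp1 they were Gpat4 (0.038), an enzyme of glycerolipid synthesis, Efnb1 (0.042) and Nudt5 (0.047), and for Letmd1 Efnb1 (0.037), Slc29a1 (0.040) and Ttc38 (0.050). For Cidea they were Dtnbp1 (0.028), Sdhb (0.030), a subunit of respiratory complex II, and Rabepk (0.034), and for Eva1a Mpzl3 (0.094), Fhdc1 (0.099) and Rab6b (0.10). For Ppargc1a they were Prdm16 (0.21), Slc20a1 (0.23) and Setbp1 (0.25). These differences are larger, but the measure is not scaled to a gene's spread, which was largest for Ppargc1a among the members. Prdm16, a factor that holds brown identity, stood at 19.0, 30.7 and 13.3 CPM in controls and 18.6, 29.8 and 23.7 CPM in knockouts, high in the same 2 libraries as Ppargc1a. For Ppargc1b they were Snrk (0.061), Lipg (0.065) and Ttc28 (0.085), for Dio2 Zfp697 (0.13), Lyst (0.15) and Map7 (0.15), and for Irf4 Mbd1 (0.15), Irs2 (0.16), an adaptor of the insulin receptor, and Dcun1d3 (0.17).

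The other genes of the pathway were read from 5 lists, in which 0 genes passed in either direction. Of 27 tested genes of brown fat heat and identity outside the 8, 24 had a positive log2 fold change, with a median of 0.33, and in 9 all knockouts lay above all controls, as in 7.63% of all tested genes. The smallest p-values belonged to Zic1, Kcnk3 and Acot2. Zic1, a marker of classical brown fat, stood at 3.23, 6.46 and 4.62 CPM in controls and 7.43, 8.46 and 11.3 CPM in knockouts (log2 fold change 0.93, SE 0.29, edgeR adjusted p = 0.309). Kcnk3, a potassium channel, stood at 558 ± 101 and 806 ± 79.5 CPM, and Acot2, a mitochondrial thioesterase, at 82.9 ± 8.31 and 114 ± 16.9 CPM (SD, n = 3 each). Scaled to the adipocyte markers, the median of the list was 0.12.

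Of the signalling genes upstream, 12 of 21 genes of the adrenergic and cyclic AMP path were positive (median 0.04), with 2 in which all knockouts lay above all controls and 5 in which all lay below, against 7.63% and 10.8% of all tested genes. Prkar2a, a regulatory subunit of protein kinase A, stood at 63.3 ± 8.93 and 39.1 ± 5.28 CPM, and Map2k6, a kinase that activates p38, at 3.38 ± 0.730 and 1.10 ± 0.511 CPM (SD, n = 3 each). Both genes are also expressed in muscle, whose marker share is given above, and its part in their values was not tested. Adrb3, the main receptor of brown adipocytes, had a log2 fold change of 0.10 (SE 0.18).

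Among 20 genes listed as PGC-1 partners, 14 were positive (median 0.07) and 0 had groups without overlap. The list also holds Tfam, Tfb1m and Tfb2m, which act downstream of these coactivators. The smallest p-values belonged to Pparg, the master factor of adipocytes (log2 fold change 0.27, SE 0.14), Esrra, an orphan receptor of mitochondrial genes (0.33, SE 0.18), and Gabpb1, a subunit of a factor of respiratory chain genes (-0.28, SE 0.22). Of 14 repressors of Ucp1 or of the brown programme, 9 were negative (median -0.08) and 4 had all knockouts below all controls, as did 10.8% of all tested genes. Nrip1, a corepressor known to silence Ucp1, stood at 14.5, 18.8 and 18.3 CPM in controls and 7.23, 11.3 and 12.3 CPM in knockouts (log2 fold change -0.73, SE 0.22, edgeR adjusted p = 0.30). Rbl1, a relative of the retinoblastoma protein, stood at 2.52 ± 0.879 and 1.62 ± 0.0701 CPM (SD, n = 3 each).

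Of 10 tested genes of thyroid hormone handling around Dio2, 5 were positive and 5 negative (median -0.06). Thrsp, a thyroid hormone-responsive gene of fat synthesis, stood at 1996, 1793 and 1668 CPM in controls and 2906, 2129 and 2156 CPM in knockouts, without overlap and without passing (log2 fold change 0.40, SE 0.15, edgeR adjusted p = 0.412). March6, a ubiquitin ligase that acts on the Dio2 protein (-0.30, SE 0.17), and Slc16a10, a transporter of aromatic amino acids and thyroid hormone (-0.26, SE 0.15), overlapped.

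**Figure D4:**
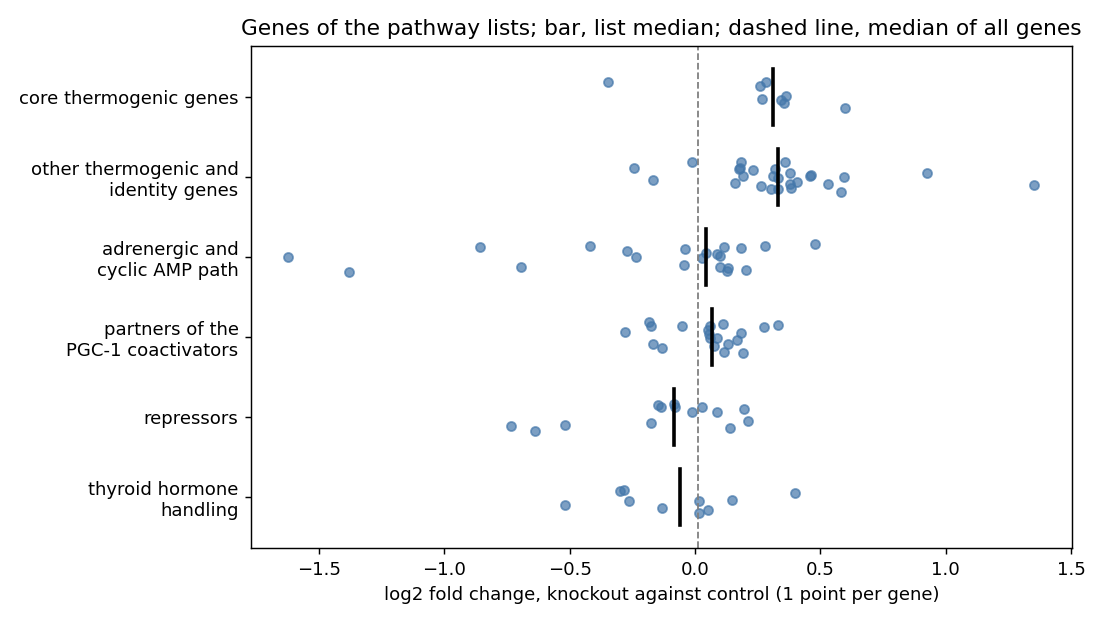
Log2 fold change of knockout against control (horizontal axis), with 1 point for each tested gene of the 8 and of the 5 pathway lists (rows); vertical bars are list medians and the dashed line the median of all tested genes. The medians of the 8 genes (0.31) and of the other thermogenic genes (0.33) lie to the right of that line, and those of the other 4 lists lie near it.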

How the data were processed

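The mRNA of 6 libraries was read from 1 table, deposited by the authors, of estimated counts for each gene; by its values it is not normalized. Per the submitters' processing notes StringTie, Salmon and edgeR were used, with the build GRCm38; no source used here gives their versions, annotation, strand setting or filters. Depot and replicate number differ between the series design text and the sample labels, and the labels were followed. Columns were matched to samples by the name in each description. Symbols and positions came from GENCODE vM21 (54131 of 54385 identifiers matched).

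Estimated counts were rounded. Genes passing filterByExpr (minimum count 10, total 15) were tested with edgeR 4.0.16 in R 4.3.3 (glmQLFit, glmQLFTest, two-sided, TMM, genotype as the only term), adjusted p under 0.05. Standard errors are the log2 fold change over the root of F, and 95% intervals use the t quantile. The labels do not say that replicates are separate animals, so the p-values may reflect technical spread only. No 2 libraries of a group agreed within sampling noise. A floor of 3 counts is 0.172 to 0.203 CPM. Alternatives were RLE, upper-quartile and pan-adipocyte scaling, DESeq2 1.42.0, limma-voom (limma 3.58.1), other filters, library sizes without mitochondrial genes, unrounded counts, replicate and muscle terms, a length and GC trend, an adjusted p under 0.1 and each library left out. The fit was run on simulated counts with the same dispersion for every gene. That does not show how it performs on these libraries.

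The members, lists and tests were chosen with earlier results of these data known. Genes named beyond the members were Adcy3, tested relatives in each family, the 3 genes with the smallest p in each list of the pathway, the 3 most alike in pattern to each member, and the first 2 genes of the muscle list. Some genes that this rule names are not reported here. Adrb3 and Mpzl2 were named outside that rule after their values were seen.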

Additional observations from a re-analysis of the deposited data

How the results depend on the processing

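Over 20 alternatives, 152 of the 160 values of the 8 genes kept their direction and did not pass. Ucp1 was past the threshold without knockout 1 (0.36). Directions turned, without passing, under the muscle-share covariate (Dio2 -0.50, Ppargc1a -1.10, Ppargc1b -0.34) and with its log2, added after seeing the data (Dio2 -0.15, Ppargc1a -0.34). Leaving out each library gave 0.28 to 0.36 for Ucp1, 0.10 to 0.61 for Dio2, 0.080 to 0.37 for Ppargc1b, 0.24 to 0.48 for Cidea, 0.29 to 0.41 for Letmd1, 0.49 to 0.71 for Eva1a, -0.085 (without knockout 2) to 0.80 for Ppargc1a, -0.60 to 0.076 (without control 2) for Irf4 and -0.24 to 0.35 for the log2 ratio of Ppargc1a to Ppargc1b. Adcy3 lost its call with the muscle share (-3.14, adjusted p = 0.0653; adjusted p from 1.26e-05 to 0.0291 with a library left out).

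Genes passing as higher were 4, against 31 with DESeq2, 111 with no low-count filter, 7 at an adjusted p under 0.1, 17 with the log2 muscle share and 3 to 45 with a library left out. Genes passing as lower were 5, against 132 with pan-adipocyte scaling, 259 with DESeq2, 27 with limma-voom, 782 with no low-count filter, 0 with the muscle share, 39 at an adjusted p under 0.1, 10 with the log2 muscle share and 1 to 812 with a library left out, the highest without knockout 1. Pan-adipocyte scaling moved the list medians to 0.12 (other thermogenic genes), -0.15 (adrenergic and cyclic AMP path), -0.13 (PGC-1 partners), -0.28 (repressors) and -0.25 (thyroid hormone handling), beside -0.19 for all genes. The causes were not tested.

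Titles give replicate numbers to both groups but no shared litter or day. Deviations of same-numbered libraries correlated at 0.07, 0.11 and 0.05, each library best with its own number, a hint from the data and not the design. With the replicate block 2 genes passed as higher and 2 as lower, and Ucp1 was at 0.34 (edgeR adjusted p = 0.406). The standard error with the block was 0.21 for Ppargc1a (0.41 without it), 0.20 for Dio2 (0.27) and 0.13 for Ppargc1b (0.19). It was also smaller for Irf4 and larger for Ucp1, Cidea, Letmd1 and Eva1a, and none of these genes passed.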
